A study of Mus musculus with 22 samples.

Results

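The surface markers that define the sorted lung myeloid cells, or that separate their lineages, were followed through 22 RNA-seq libraries. The 8 marker genes were taken by name from the 31116 genes that both deposited count tables hold: *Siglecf* (Siglec-F), *Itgam* (CD11b), *Itgax* (CD11c), *Ly6c1* and *Ly6c2* (together the Ly6C antigen), *Ly6g* (Ly6G), *Adgre1* (F4/80) and *Ptprc* (CD45). All mice were of the C57BL/6 strain and are labelled as carrying the SP-C I73T mutant, a missense allele of the surfactant protein C gene expressed by alveolar type 2 cells. Injured mice received tamoxifen, which excises a cassette that holds back the mutant allele, and lungs were taken at 3 d or 14 d. Controls are labelled untreated. The study describes the controls of the monocyte sequencing as mutant mice given oil, while its methods pool such mice with tamoxifen-treated mice that lack the recombinase, and the labels do not tell these apart. Alveolar macrophages, labelled SigF+CD11b-, gave 4 control, 3 3-d and 3 14-d libraries. Monocytes, labelled Ly6Chi and sorted as CD11b+Ly6Chi cells, gave 4 libraries in each of the same groups. The methods started from single viable CD45+ cells, and in sorting monocytes they gated out alveolar macrophages, CD11b+ eosinophils, Ly6G+ neutrophils and CD3+ lymphocytes. The study's own text gives the monocyte gate once with and once without Siglec-F. It also describes the sorted monocytes as CD11c- and as CD64- (*Fcgr1*). Its alveolar macrophages are CD11b- in the methods, but CD11b-intermediate and CD11b-low in other passages. No source used here states that each library came from a separate mouse, so the p-values measure the spread between these libraries. In bulk RNA, fewer cells of a type and less RNA per cell cannot be told apart.

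Siglec-F is a sialic acid-binding receptor of resident alveolar macrophages and eosinophils. CD11b and CD11c are integrin alpha chains that pair with the same beta chain, *Itgb2*: CD11b is typical of monocytes, neutrophils and recruited macrophages, and CD11c of alveolar macrophages and dendritic cells. Ly6C and Ly6G are small lipid-anchored proteins that mark classical monocytes and neutrophils. F4/80 is an adhesion G protein-coupled receptor of mouse macrophages, and CD45 is the receptor tyrosine phosphatase carried by all leukocytes. Sorting selects on the protein at the cell surface, so a transcript of a gated antigen need not follow its gate.

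The Ly6C antibody reads the products of a pair of genes on chromosome 15 of GRCm38, *Ly6c1* at chr15:75044018-75048830 and *Ly6c2* at chr15:75108158-75111970, both on the minus strand. The start of their coding sequences is shown because how far reads can be assigned to one gene or the other bears on the values given further on. Both are 393 bases long, of which the first 300 are written 5′ to 3′, with the bases that differ between them in capitals.
Ly6c1: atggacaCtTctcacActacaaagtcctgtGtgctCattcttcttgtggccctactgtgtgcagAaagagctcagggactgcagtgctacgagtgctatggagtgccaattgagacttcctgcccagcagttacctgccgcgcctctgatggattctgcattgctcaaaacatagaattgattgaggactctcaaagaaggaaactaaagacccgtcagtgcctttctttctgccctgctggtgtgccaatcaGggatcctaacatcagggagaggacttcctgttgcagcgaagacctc
Ly6c2: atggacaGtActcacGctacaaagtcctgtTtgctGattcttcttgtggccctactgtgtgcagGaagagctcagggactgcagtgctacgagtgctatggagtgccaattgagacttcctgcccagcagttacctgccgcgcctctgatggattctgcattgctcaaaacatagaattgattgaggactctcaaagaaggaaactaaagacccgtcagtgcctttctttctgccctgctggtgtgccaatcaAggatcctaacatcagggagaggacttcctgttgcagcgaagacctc
These 300 positions hold 7 of the 9 differences. Of the 393 positions 384 are identical (97.7%), and the longest identical run has 188 bases. Over the whole *Ly6c1* transcript of 844 bases, 39 of 695 windows of 150 bases (5.61%) also occur in *Ly6c2*, against 49.1% of windows of 30 bases. How reads that fit both genes were counted is not given in the sources used here, so the split between the 2 genes is uncertain. *Ly6g*, at chr15:75155240-75159126 on the plus strand, was 78.1% identical to *Ly6c1* and 76.9% to *Ly6c2* in coding sequence, and shares no window of 50 bases with either.

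The 250 bases before the start of these 3 related genes are shown as a description, and no link between them and the levels was tested. They come from RefSeq on GRCm38.p6, on each gene's own strand, and capitals mark GAGGAAGT, a form of the purine-rich motif of the myeloid factor PU.1, searched on both strands.
Ly6c1, chr15:75048838-75049087, minus strand: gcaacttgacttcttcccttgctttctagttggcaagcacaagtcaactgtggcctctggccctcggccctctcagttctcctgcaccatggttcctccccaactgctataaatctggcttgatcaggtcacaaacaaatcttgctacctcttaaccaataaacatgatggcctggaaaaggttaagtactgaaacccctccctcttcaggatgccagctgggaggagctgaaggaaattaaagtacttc
Ly6c2, chr15:75111972-75112221, minus strand: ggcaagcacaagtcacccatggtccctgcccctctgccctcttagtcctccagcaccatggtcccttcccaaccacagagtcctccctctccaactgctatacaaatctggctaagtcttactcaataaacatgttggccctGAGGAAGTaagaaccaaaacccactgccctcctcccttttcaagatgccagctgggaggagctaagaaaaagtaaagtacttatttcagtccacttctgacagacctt
Ly6g, chr15:75155011-75155260, plus strand: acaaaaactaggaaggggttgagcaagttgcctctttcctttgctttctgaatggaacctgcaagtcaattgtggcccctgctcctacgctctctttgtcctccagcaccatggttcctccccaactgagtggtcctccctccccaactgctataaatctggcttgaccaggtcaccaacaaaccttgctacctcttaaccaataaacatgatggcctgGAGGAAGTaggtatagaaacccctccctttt
The 8 letters were found once in *Ly6c2* and once in *Ly6g*, and in none of the nearest windows of *Ly6c1*, *Siglecf*, *Itgam*, *Itgax* and *Ptprc*. They occur in 799 of 32544 RefSeq promoters of this length (2.46%), and a match in this window is a description of the letters only. No promoter entry matched *Adgre1*.

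Total counts were 15451460 to 28789639 in the monocyte libraries and 4610720 to 17074863 in the macrophage libraries, with the 14-d macrophages lowest at 4610720 to 6838893. A count of 3 corresponded to 0.104 to 0.194 CPM (counts per 1000000 counts) in monocytes and to 0.176 to 0.651 CPM in macrophages. Some library properties moved with the groups. Olfactory receptor genes, which these cells are not known to use, summed to 618 to 999 CPM in 3-d monocytes and 414 to 804 CPM in 14-d macrophages, against 11.01 to 153 CPM in the other 4 groups. *Xist*, transcribed from the inactive X chromosome, had 552 to 4444 counts in control and 3-d libraries and 1 to 32 at 14 d, while Y-linked genes had 0 to 3 and 433 to 3033 counts, so sex and the 14-d time cannot be told apart. The part of these properties in the results was not tested. Changes below are log2 fold changes ± SE from edgeR, and the word called is used for an adjusted p under 0.05, over all genes tested, together with a fold above 1.5.

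**Figure D1:**
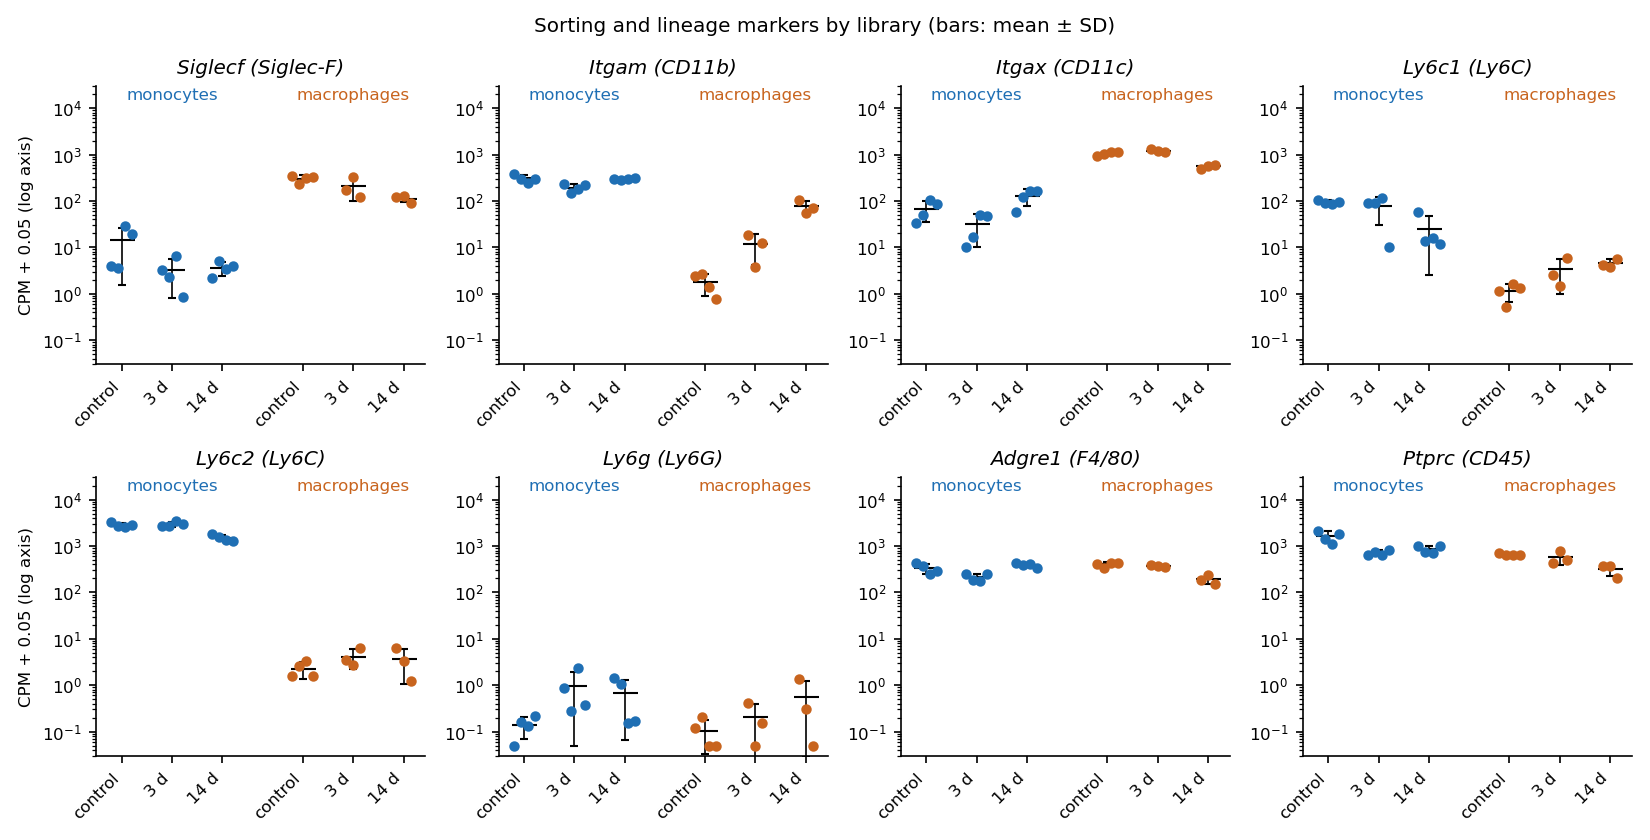
Level of each marker gene in each library, in CPM plus 0.05 on a log axis, for the 6 groups (points are libraries, bars are mean ± SD of the group, with the lower whisker omitted where mean minus SD is not above 0). Ly6c2 was at 1314 to 3459 CPM in monocytes and at 1.18 to 6.19 CPM in macrophages, and Itgam rose from 0.730 to 2.66 CPM in control macrophages to 54.9 to 102 CPM at 14 d.

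The markers separated the cell types in the controls, and the lists of other defining genes followed the labels. The 7 classical monocyte markers summed to 8249 to 15100 CPM in control monocytes and 1350 to 2400 CPM in control macrophages, and the 11 alveolar macrophage markers to 727 to 2125 and 12455 to 13982 CPM. Per kilobase, the order in control monocytes was *Ly6c2* (1046 ± 112 RPKM, SD, n = 4), *Adgre1* (103 ± 25.0), *Ptprc* (87.8 ± 24.5), *Itgam* (60.6 ± 11.7), *Ly6c1* (56.1 ± 5.63), *Itgax* (14.0 ± 6.60), *Siglecf* (5.03 ± 4.49) and *Ly6g* (0.0931 ± 0.0719). The neighbours *Adgre1* and *Ptprc*, and *Itgam* and *Ly6c1*, lay within their spread. In control macrophages the order of RPKM levels was *Itgax* (222 ± 20.8), *Adgre1* (124 ± 14.1), *Siglecf* (109 ± 18.5), *Ptprc* (36.3 ± 1.49), *Ly6c2* (0.811 ± 0.322), *Ly6c1* (0.654 ± 0.281), *Itgam* (0.350 ± 0.178) and *Ly6g* (0.0585 ± 0.0767). Here *Adgre1* and *Siglecf* lay within their spread, as did the neighbours from *Ly6c2* to *Itgam*.

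Between the control cell types, 6 of the 8 markers were called, where 44.2% of the 26692 genes tested were. *Siglecf* was higher in macrophages by 4.07 ± 0.65 and *Itgax* by 3.62 ± 0.48 on the log2 scale, and *Itgam*, *Ly6c1*, *Ly6c2* and *Ptprc* were lower, with log2 fold changes of -7.82, -6.76, -10.69 and -1.65. *Adgre1* did not separate the sorted cells, with a log2 difference of -0.10 (adjusted p = 0.659) from monocytes. The macrophage and monocyte tables were made as separate files, and a difference between the cell types cannot be told apart from one between the tables. Among 3-d libraries 7 of 8 markers were called between the cell types (63.1% of all genes), and among 14-d libraries again 7 of 8 (63.7%). The log2 distance in *Itgam* went from -7.82 in controls to -4.60 at 3 d and -2.67 at 14 d, and that in *Itgax* was 3.62, 4.74 and 1.41. *Adgre1* stood at -0.10, 0.25 and -1.75, and only the last of these was called. The median of all genes lay at 0.05, -0.80 and 0.97 in these comparisons, and at 0.47, -0.68 and 2.05 by library size alone.

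In monocytes at 3 d, 5 of 8 markers were called (1 higher, 4 lower), beside 51.2% of 22353 genes tested, where 36.8% of all genes were called higher and 14.4% lower. The count was 3 with RLE factors or DESeq2, 2 by library size alone and 1 when genes at or under 1 in mean log2 CPM were left out. At 14 d against control 2 of 8 were called, both lower, beside 8.56% (3.22% higher, 5.34% lower), and at 14 d against 3 d 4 of 8 (3 higher, 1 lower), beside 46.5%. In macrophages *Ly6g* was too low to test. None of the other 7 was called at 3 d in edgeR, beside 1.27% of 20944 genes, and at an unadjusted p under 0.05 there were 2 of 7. At 14 d 6 of the 7 were called (2 higher, 4 lower), beside 62.3% (39.4% higher, 22.9% lower), and at 14 d against 3 d 5 of 7 (1 higher, 4 lower), beside 56.4%. The groups did not overlap for 51.2% of all genes in 3-d and 13.7% in 14-d monocytes against control, and for 14.0% and 70.8% in macrophages. The 2 comparisons with control and the one between times share libraries, so their values are given side by side and not as independent results. The median log2 fold change of all genes was 0.22 in 3-d monocytes and 0.18 in 14-d macrophages, and scaling by library size alone moved these to 0.70 and 0.61, so the changes are relative to that shift.

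**Figure D2:**
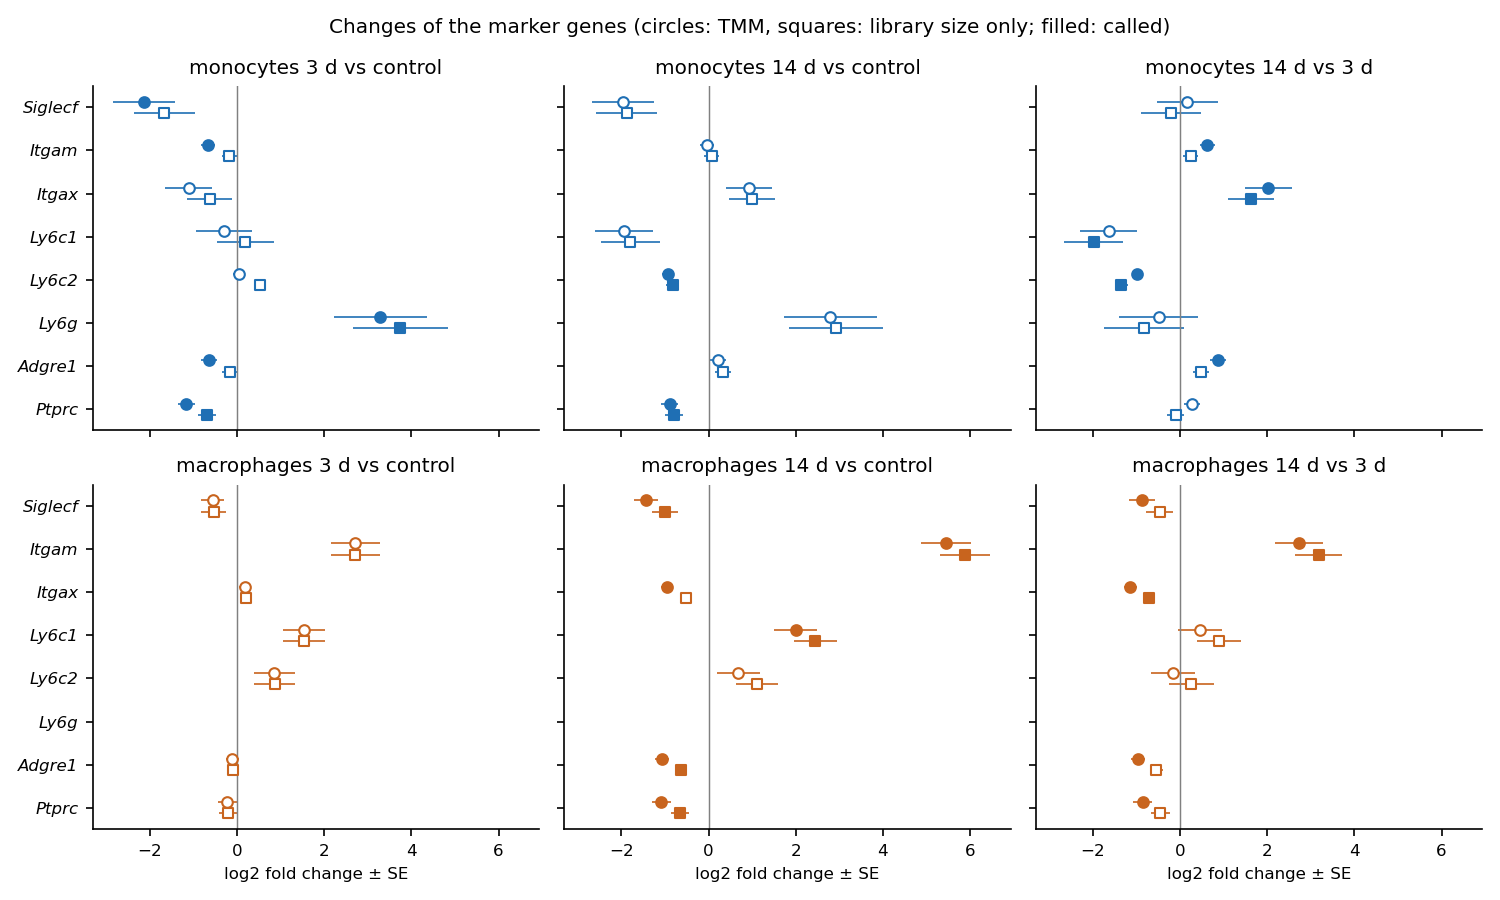
Log2 fold change ± SE of each marker gene in 6 within-cell-type comparisons, with circles for TMM scaling and squares for scaling by library size alone, and filled symbols for called genes. In 14-d macrophages Itgam was higher by 5.45 and Siglecf changed by -1.43, and Ly6g was not tested in macrophages.

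*Siglecf* (chr7:43351341-43359531) was highest in control macrophages and fell there by 14 d. Control macrophages had 348, 231, 305 and 332 CPM (mean 304 ± 51.7, SD, n = 4), 3-d macrophages 171, 322 and 124 CPM (206 ± 104, n = 3) and 14-d macrophages 120, 127 and 90.1 CPM (112 ± 19.7, n = 3). The 14-d libraries lay below all control libraries, while the 3-d group overlapped both. At 14 d the change was -1.43 ± 0.28 on the log2 scale (adjusted p = 0.000657). At 3 d it was -0.56 (adjusted p = 0.375). Of 10 fits that each left out 1 library, 1 called it, with adjusted p up to 0.885 in the others. That fit lacked 3-d replicate 2, the highest of its group (-1.003, adjusted p = 0.0036). The alveolar macrophage markers, a list of 11 genes that set this cell type apart, fell alongside: their summed level was 12455 to 13982 CPM in control, 11588 to 12351 CPM in 3-d and 3108 to 5036 CPM in 14-d macrophages, with none of the 11 at 0. Eosinophils also carry Siglec-F, although the study gates them as CD11b+ and these cells are labelled CD11b-. The 6 eosinophil markers summed to 9.83 to 12.1 CPM in control, 17.4 to 114 CPM in 3-d and 76.1 to 273 CPM in 14-d macrophages. *Prg2*, an eosinophil granule protein, was at 77.3, 18.5 and 82.8 CPM at 14 d and at 0 to 1.14 CPM before. The eosinophil peroxidase gene *Epx*, named after its values were seen, was at 1.39 to 2.31 CPM at 14 d. Their part in the *Siglecf* level was not tested.

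In monocytes *Siglecf* was low and uneven. The 4 control libraries had 3.89, 3.55, 29.2 and 19.4 CPM, against 3.25, 2.25, 6.56 and 0.800 CPM at 3 d and 2.13, 5.03, 3.30 and 3.95 CPM at 14 d. Control replicates 3 and 4 stood above all other monocyte libraries, and replicates 1 and 2 overlapped both injured groups. These libraries also had the highest sums of the 11 alveolar macrophage markers among the controls (2125 and 2041 CPM, against 727 and 780 CPM in replicates 1 and 2). *Krt79*, named after its values were seen and which control macrophages held at 647 to 1008 CPM, was at 64.6 and 34.8 CPM in control monocyte replicates 3 and 4 and at 2.40 and 4.63 CPM in replicates 1 and 2. At 3 d the log2 fold change of *Siglecf* was -2.13 ± 0.71 (adjusted p = 0.0222), and with control replicates 3 and 4 left out it was -0.29 (adjusted p = 0.692), so the call rested on those libraries. At 14 d it was -1.96 (adjusted p = 0.113).

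*Itgam* (chr7:128062640-128118491) showed the largest fitted increase of the 8 genes in macrophages. These cells are labelled CD11b-, while other passages of the study give its alveolar macrophages as CD11b-intermediate or CD11b-low. Control macrophages had 2.33, 2.66, 1.31 and 0.730 CPM (mean 1.76 ± 0.894, SD, n = 4), the 3-d libraries 18.3, 3.65 and 12.4 CPM (11.5 ± 7.39, n = 3) and the 14-d libraries 102, 54.9 and 71.5 CPM (76.3 ± 24.1, n = 3). The 3 groups did not overlap: every 3-d library lay above every control and below every 14-d library. It was higher at 14 d by 5.45 ± 0.57 on the log2 scale (adjusted p = 4.4e-05), a 43.6-fold higher level, and 2.73 at 14 d against 3 d (adjusted p = 0.00235). At 3 d it was 2.72 ± 0.57 (adjusted p = 0.0585), and DESeq2 called it at 2.76 (adjusted p = 0.00086). Without the lowest 3-d library, replicate 2, edgeR called it at 3.19 (adjusted p = 0.00105). This was 1 of 10 fits that each left out 1 library, and the others did not call it (adjusted p up to 0.351). The exons of *Itgam* share 3450 bases with the overlapping gene model Gm49368 on the same strand, which held 0 to 19 counts in macrophages.

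Markers of other cell types were measured in the same macrophage libraries, which are labelled CD11b-. The 10 neutrophil markers summed to 115 to 233 CPM in control, 155 to 227 CPM in 3-d and 459 to 1766 CPM in 14-d macrophages. The 8 dendritic cell markers summed to 49.3 to 76.4, 209 to 426 and 71.2 to 283 CPM in the same groups. The 6 eosinophil markers summed to 9.83 to 12.1, 17.4 to 114 and 76.1 to 273 CPM. The 7 classical monocyte markers summed to 1350 to 2400, 2421 to 3279 and 2953 to 3622 CPM, and to 11864 to 14761 CPM in 14-d monocytes. The 7 interstitial macrophage markers summed to 4.25 to 19.99 CPM in control, 17.1 to 41.6 CPM at 3 d and 252 to 518 CPM at 14 d. The 6 fibroblast markers, of cells that do not carry CD11b, summed to 16.5 to 22.7, 18.4 to 34.3 and 155 to 339 CPM. *Ccr2* and *F13a1*, picked from the 7 classical monocyte markers after their values were seen, reached 35.8 to 88.0 and 8.95 to 24.3 CPM in 14-d macrophages. In 14-d monocytes they had 1629 to 2823 and 1580 to 2684 CPM, a wider gap than that of the list sum. *Ly6c2*, which defines classical monocytes, was at 1.18 to 6.19 CPM in 14-d macrophages and at 1314 to 1790 CPM in 14-d monocytes. The part of other cells in the *Itgam* level was not tested.

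Monocytes had *Itgam* at 383, 295, 240 and 299 CPM in control (304 ± 58.8, SD, n = 4), 229, 144, 178 and 216 CPM at 3 d (192 ± 38.4) and 291, 276, 301 and 319 CPM at 14 d (297 ± 17.8). The 3-d libraries lay below all others, and the 14-d libraries lay within the range of the controls. The log2 fold change was -0.67 ± 0.17 at 3 d (adjusted p = 0.00514), 0.63 ± 0.17 at 14 d against 3 d (adjusted p = 0.00854) and -0.04 at 14 d against control. The fall at 3 d depended on the scaling: by library size alone the change was -0.18 and the group means were 265 ± 51.5 and 234 ± 49.97 CPM, and with DESeq2 the change of -0.54 was under the 1.5-fold limit.

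*Itgax* (chr7:128129547-128150657) lies 11055 bases beyond *Itgam* on the same chromosome and took another course. Macrophages had 942, 1035, 1138 and 1158 CPM in control (1068 ± 99.9, SD, n = 4), 1308, 1201 and 1136 CPM at 3 d (1215 ± 86.9, n = 3) and 496, 562 and 598 CPM at 14 d (552 ± 52.1, n = 3). Each 14-d library was below every earlier one. Against control, 14-d *Itgax* changed by -0.95 ± 0.14 on the log2 scale (adjusted p = 4.1e-05), and by library size alone it was -0.51, under the 1.5-fold limit. In monocytes, which the study describes as CD11c-, *Itgax* had 34.1, 48.5, 103 and 84.6 CPM in control, 10.1, 16.5, 50.6 and 48.0 CPM at 3 d and 56.5, 122, 166 and 166 CPM at 14 d. The control group overlapped both injured groups, and every 14-d library was above every 3-d library. The log2 fold change was -1.11 ± 0.53 at 3 d (adjusted p = 0.0944), 0.92 at 14 d (adjusted p = 0.345) and 2.03 ± 0.55 at 14 d against 3 d (adjusted p = 0.0108). Alveolar macrophages carry CD11c, and their 11 markers summed to 727 to 2125 CPM in control, 269 to 645 CPM in 3-d and 752 to 1632 CPM in 14-d monocytes. Control replicates 3 and 4 were highest of their group both in these sums and in *Itgax*, and without them the changes in *Itgax* were -0.47 at 3 d, 1.64 at 14 d (neither called) and 2.11 between the times (called). The part of these cells was not tested. Within macrophages the mean log2 ratio of *Itgam* to *Itgax* was -9.38 ± 0.95 (SD) in control, -7.004 ± 1.18 at 3 d and -2.90 ± 0.56 at 14 d, and an exact two-sided permutation test gave p = 0.0571 for each injured group against control, the smallest that 3 against 4 libraries allow.

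The partner chain *Itgb2* did not follow *Itgam* in macrophages. It had 1776 to 2107 CPM in control and 914 to 1183 CPM at 14 d, with a log2 fold change of -0.91 (called), and in monocytes it was called lower at 3 d (-0.87) and at 14 d (-0.64). Among the 15 other integrin genes, *Itgb2* included, 3 were called higher and 6 lower in monocytes at 3 d, 1 and 4 at 14 d, and 7 and 4 in macrophages at 14 d. Over all genes 36.8% were called higher and 14.4% lower in the first of these, 3.22% and 5.34% in the second, and 39.4% and 22.9% in the third. *Itgal*, which pairs with *Itgb2* in the lymphocyte integrin LFA-1, was called lower in all 3 of these comparisons (-1.40, -1.86 and -1.23).

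*Ly6c2* carried most of the Ly6C reads in monocytes and fell only by 14 d. Control monocytes had 3281, 2719, 2570 and 2896 CPM (2866 ± 307, SD, n = 4), 3-d monocytes 2668, 2737, 3459 and 2915 CPM (2945 ± 358) and 14-d monocytes 1790, 1530, 1360 and 1314 CPM (1498 ± 215). All 14-d libraries lay below all earlier ones, and the control and 3-d ranges overlapped. This overlap depended on the scaling: by library size alone the 3-d libraries had 3266 to 4165 CPM and the controls 2220 to 2831 CPM. The log2 fold change was -0.94 ± 0.13 at 14 d (adjusted p = 0.000482), -0.97 ± 0.13 at 14 d against 3 d (adjusted p = 0.000547) and 0.04 ± 0.13 at 3 d (adjusted p = 0.821). The 14-d call held in every alternative run. The 7 interstitial macrophage markers summed to 65.2 to 180 CPM in control and 744 to 1882 CPM in 14-d monocytes. Of these 5 were called higher, the complement genes *C1qa*, *C1qb* and *C1qc* among them (4.64, 3.86 and 4.23), and 1 lower, *Lyve1* (-2.99), named after its values were seen. Over all genes 3.22% were called higher and 5.34% lower. The same libraries had less of the 6 patrolling monocyte markers, which went from 2675 to 3303 CPM to 490 to 825 CPM. In macrophages *Ly6c2* was at 1.51, 2.51, 3.34 and 1.53 CPM in control, 3.37, 2.64 and 6.15 CPM at 3 d and 6.19, 3.28 and 1.18 CPM at 14 d, with overlapping groups and no call (0.69 at 14 d, adjusted p = 0.216).

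*Ly6c1* was the minor gene, and single libraries departed from their groups. Monocytes had 107, 88.1, 85.7 and 96.1 CPM in control (94.1 ± 9.44, SD, n = 4), 88.9, 91.2, 118 and 9.98 CPM at 3 d (77.0 ± 46.6) and 58.0, 13.7, 15.5 and 11.7 CPM at 14 d (24.7 ± 22.2). Replicate 4 at 3 d sat with 3 of the 14-d libraries, and 14-d replicate 1 lay between them and the controls. Its log2 fold change at 14 d was -1.93 ± 0.67 (adjusted p = 0.105), and DESeq2 called it at -1.92 (adjusted p = 0.044). Without 14-d replicate 1 edgeR called it at -2.79 (adjusted p = 0.0206). Of 12 fits that each left out 1 library, 2 called it, with adjusted p up to 0.276 in the others. In macrophages *Ly6c1* was at 1.096, 0.456, 1.57 and 1.26 CPM in control, 2.51, 1.40 and 5.94 CPM at 3 d and 4.03, 3.78 and 5.58 CPM at 14 d, higher at 14 d by 1.999 ± 0.49 on the log2 scale (adjusted p = 0.00212). Lung endothelium also carries *Ly6c1*, although the CD45+ gate leaves out endothelial cells, and the 7 endothelial markers summed to 109 to 160 CPM in control and 93.3 to 97.2 CPM in 14-d macrophages, and to 21.1 to 46.4 CPM in control, 43.4 to 54.1 CPM in 3-d and 19.9 to 26.4 CPM in 14-d monocytes.

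The ratio of *Ly6c2* to *Ly6c1* counts took 1 value in most monocyte libraries and others in the rest. It was 29.4 to 30.9 in 8 libraries: all 4 controls, 3-d replicates 1 to 3 and 14-d replicate 1. It was 292 in 3-d replicate 4 and 112, 87.4 and 113 in 14-d replicates 2, 3 and 4. The mean log2 ratio was 4.93 ± 0.02 (SD, n = 4) in control, 5.72 ± 1.65 at 3 d and 6.25 ± 0.89 at 14 d. The difference of 1.33 at 14 d had p = 0.0286 in an exact two-sided permutation test, the smallest that 4 against 4 allow, and 0.185 after adjustment over the 42 ratio tests made. The part of reads shared between the 2 genes in these ratios was not tested.

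**Figure D3:**
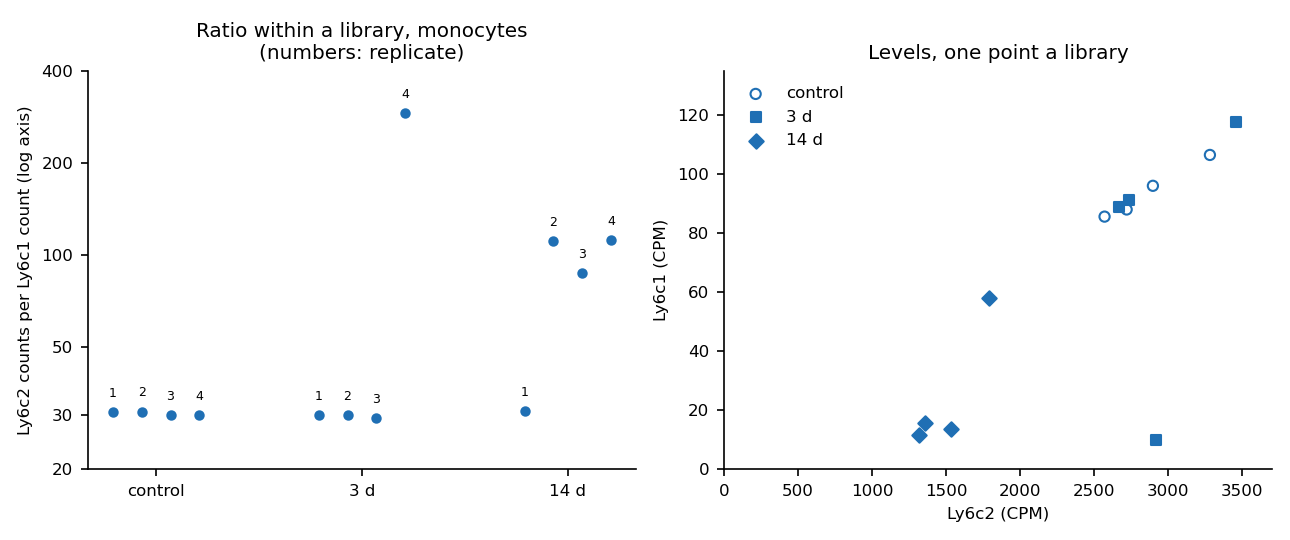
Ratio of Ly6c2 to Ly6c1 in each monocyte library, numbered by replicate, on a log axis, and Ly6c1 against Ly6c2 level in CPM on linear axes. The 8 libraries of the main cluster sit at a ratio of 29.4 to 30.9, and 3-d replicate 4 (292) and 14-d replicates 2 to 4 (87.4 to 113) sit above them.

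*Ly6g* was at or near the limit of detection. Its counts were 0, 2, 2 and 4 in control, 20, 5, 42 and 7 in 3-d and 29, 20, 2 and 3 in 14-d monocytes. All 3-d monocyte libraries were above all controls, and the 14-d libraries overlapped both. It was called higher at 3 d (3.29 ± 1.07, adjusted p = 0.0184), a fold that depends on the prior count added to so few reads, and without 3-d replicate 3 it was 2.38 (adjusted p = 0.0805). Olfactory receptor reads were highest in the same 3-d monocyte libraries, at a mean of 0.159 to 0.256 RPKM a library against 0.285 to 2.89 RPKM for *Ly6g*, both scaled by library size. The 10 neutrophil markers summed to 576 to 849 CPM in control, 477 to 1601 CPM in 3-d and 1022 to 1878 CPM in 14-d monocytes. At 3 d 2 of the 10 were called higher and 1 lower, beside 36.8% and 14.4% of all genes. *S100a8* (3.42), an abundant neutrophil protein gene, rose, *Csf3r* (-0.95), the receptor for granulocyte growth factor, fell, and *Mmp8*, the neutrophil collagenase gene, was at 0.34 and not called. The second gene called higher was *Cxcr2* (2.09), a chemokine receptor named after its values were seen. Ly6G+ cells were gated out of the monocyte sort. In macrophages the *Ly6g* counts were 1, 2, 0 and 0 in control, 5, 0 and 1 at 3 d and 9, 2 and 0 at 14 d, where the neutrophil list summed to 459 to 1766 CPM at 14 d.

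*Adgre1* (chr17:57358691-57483527) was level between the control cell types and was called lower in 14-d macrophages, while in monocytes it was not called at 14 d against control. Macrophages had 413, 334, 425 and 433 CPM in control (401 ± 45.8, SD, n = 4), 394, 364 and 359 CPM at 3 d (372 ± 19.0, n = 3) and 187, 232 and 153 CPM at 14 d (191 ± 39.4, n = 3). The 14-d libraries were below all others, and the log2 fold change was -1.07 ± 0.16 (called). Monocytes had 425, 380, 251 and 285 CPM in control (335 ± 81.0, SD, n = 4), 247, 189, 172 and 246 CPM at 3 d (214 ± 38.8) and 437, 386, 407 and 336 CPM at 14 d (391 ± 42.6). The 3-d libraries were below all controls and all 14-d libraries. The log2 fold change was -0.65 ± 0.18 at 3 d (adjusted p = 0.0088), -0.15 and not called by library size alone, and 0.87 ± 0.18 at 14 d against 3 d (adjusted p = 0.00275). At 14 d against control it was 0.22 (adjusted p = 0.511). Of the 5 other leukocyte adhesion receptors, 2 were called lower and none higher in 3-d monocytes, 3 and none in 14-d monocytes, and 1 lower and 4 higher in 14-d macrophages. All-gene shares were 14.4% lower and 36.8% higher, 5.34% and 3.22%, and 22.9% and 39.4%, in the same order. *Adgre5* (CD97) was called lower in monocytes at 3 d (-1.08) and 14 d (-1.43) and higher in macrophages at both times (1.18 and 2.31).

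*Ptprc* (chr1:138062861-138175708) fell in both cell types. Monocytes had 2129, 1407, 1100 and 1797 CPM in control (1608 ± 449, SD, n = 4), 645, 748, 632 and 837 CPM at 3 d (715 ± 96.1) and 993, 761, 722 and 991 CPM at 14 d (867 ± 146). Every injured library was below every control. The log2 fold change was -1.17 ± 0.19 at 3 d (adjusted p = 0.000752), called whichever library was left out, and -0.89 ± 0.19 at 14 d (adjusted p = 0.00861), where the call was lost without 14-d replicate 3 (adjusted p = 0.056). Lymphoid cells carry much CD45. CD3+ cells were gated out of this sort, and no gate for NK or B cells is named. The 9 T and NK cell markers summed to 347 to 1457 CPM in control, 16.8 to 275 CPM in 3-d and 20.3 to 39.8 CPM in 14-d monocytes. Of these *Gzma*, *Nkg7*, *Klrb1c* and *Ncr1* were called lower at 3 d (-3.28, -3.39, -4.005 and -3.34). Of the CD3 chains, named after their values were seen, *Cd3d* was called lower (-1.35) and *Cd3e* and *Cd3g* were not called. The 4 B cell markers summed to 73.6 to 106, 27.9 to 44.7 and 23.4 to 48.1 CPM in the same groups. The 6 patrolling monocyte markers fell in the same libraries, from 2675 to 3303 CPM to 507 to 941 CPM at 3 d. Their part in the *Ptprc* level was not tested. Macrophages had 704, 654, 644 and 654 CPM in control (664 ± 27.4, n = 4), 431, 776 and 500 CPM at 3 d (569 ± 182, n = 3) and 365, 369 and 207 CPM at 14 d (314 ± 92.0, n = 3). The 3-d group held both lower and higher libraries than the controls, and all 14-d libraries were below them (-1.08 ± 0.22, adjusted p = 0.000504).

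Among genes that act with CD45, of 10 tested partners and substrates, 1 was called higher and 7 lower in monocytes at 3 d, and 1 and 5 at 14 d, and of 11 in macrophages at 14 d 1 and 5. All-gene shares were 36.8% higher and 14.4% lower in 3-d monocytes, 3.22% and 5.34% in 14-d monocytes, and 39.4% and 22.9% in 14-d macrophages. The Src-family kinases *Lyn* and *Fgr*, whose inhibitory tyrosine CD45 removes phosphate from, were called lower in 3-d monocytes (-0.96 and -0.86), as was the phosphatase *Ptpn6* (-0.64). *Src* itself, named after its values were seen, was the gene called higher in 3-d and 14-d monocytes (2.98 and 2.68). Set against *Ptprc* in the same monocyte library, *Ly6c2* was higher than control at 3 d by 1.17 on the log2 scale, and *Itgam* and *Adgre1* at 14 d by 0.85 and 1.11 (each p = 0.0286, exact two-sided permutation test, adjusted p = 0.185). *Ptprc* itself fell in 14-d monocytes and macrophages. In 14-d monocytes the log2 ratio of *Ly6c2* to *Ptprc* differed from control by -0.08. In 14-d macrophages the ratios to *Ptprc* differed by 0.04 for *Adgre1*, 0.18 for *Itgax* and -0.30 for *Siglecf*. Those of *Itgam* and *Ly6c2* differed there by 6.66 and 1.61. None of the 42 ratio tests passed adjustment.

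**Figure D4:**
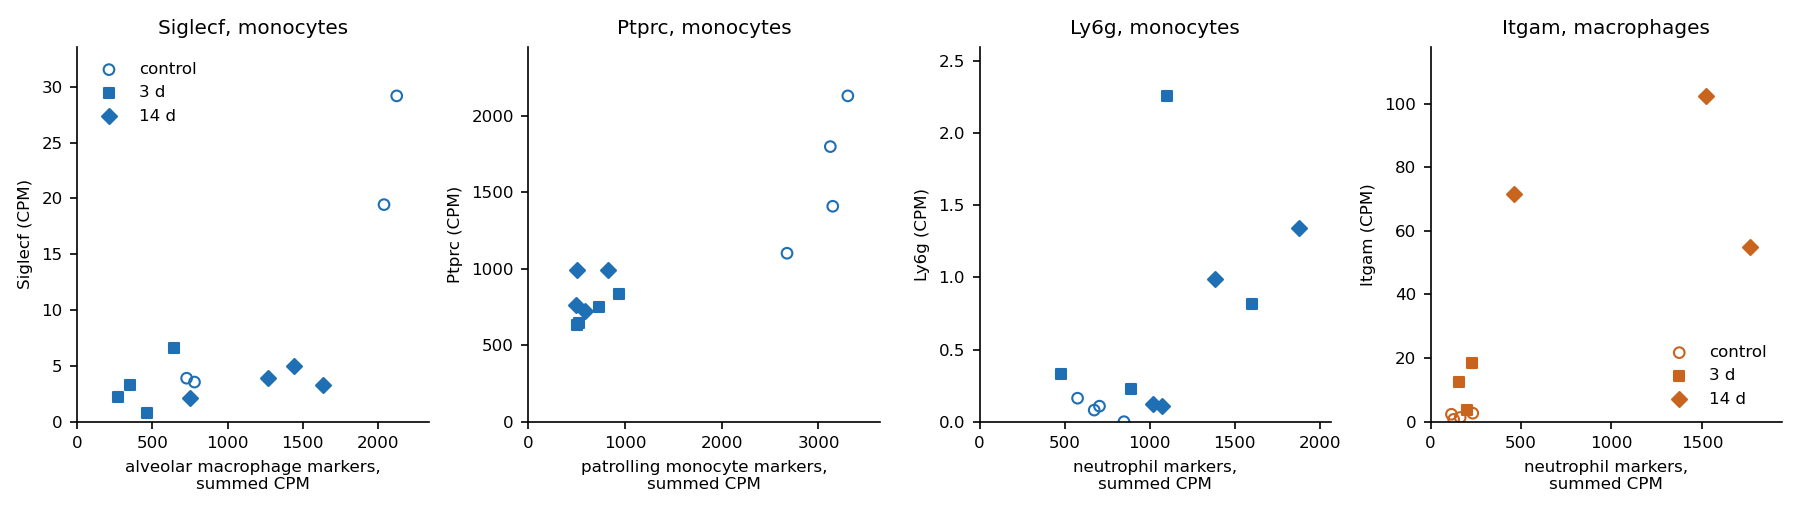
Level of 1 marker gene against the summed level of a cell type list, both in CPM on linear axes, with 1 point per library. Siglecf is set against 11 alveolar macrophage genes, Ptprc against 6 patrolling monocyte genes and Ly6g against 10 neutrophil genes in monocytes, and Itgam against 10 neutrophil genes in macrophages, where the 14-d libraries hold both the highest Itgam (54.9 to 102 CPM) and the highest sums (459 to 1766 CPM).

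Whether a marker's change differed between the cell types was tested as an interaction in the joint fit. The median of all genes was -0.63 at 3 d and 0.48 at 14 d, and -0.91 and 1.16 by library size alone. At 3 d 1 of 8 markers was called, beside 18.7% of all genes: the change in *Itgam* was higher in macrophages by 3.21 ± 0.53 (adjusted p = 0.000886). At 14 d 5 of 8 were called, beside 36.8%. The change was higher in macrophages for *Itgam* (5.15 ± 0.53), *Ly6c1* (3.56 ± 1.03, adjusted p = 0.0131) and *Ly6c2* (1.28 ± 0.46, adjusted p = 0.0339), and lower for *Itgax* (-2.21 ± 0.65, adjusted p = 0.0139) and *Adgre1* (-1.65 ± 0.25). The macrophage side of the Ly6C genes rests on few reads. *Ly6c1* had 6 to 24 counts in control and 28 to 33 at 14 d, and *Ly6c2* had 22 to 51 and 7 to 43. The split of reads between these genes is also uncertain. The call of *Ly6c2* was lost with a replicate block (1.26), and without 14-d macrophage replicate 1 its value was 0.61. It was also lost without 14-d monocyte replicate 3 or control macrophage replicate 1 or 4, and that of *Itgax* was lost by library size alone (-1.51). For *Siglecf* the difference was 0.18 and for *Ptprc* -0.54 (adjusted p = 0.151), so a difference was not shown for these.

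The 7 other antigens of the antibody panel fell or were not called in monocytes. None was called higher and 3 were called lower at 3 d, and 0 and 2 at 14 d. In macrophages at 14 d 1 was higher and 3 lower. The all-gene shares given for the integrins are the background of these counts too. *Fcgr1* (CD64), the high-affinity IgG receptor, went from 282 to 320 CPM in control monocytes to 158 to 218 CPM at 3 d and 161 to 205 CPM at 14 d, and from 66.8 to 97.1 CPM to 17.9 to 38.6 CPM in 14-d macrophages. The study describes the sorted monocytes as CD64-. *Spn* (CD43), high on patrolling monocytes, went from 67.8 to 210 CPM in control monocytes to 22.9 to 35.5 CPM at 14 d.

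Among the relatives of the markers, 0 of 7 tested Siglecs were called higher and 2 lower in 3-d monocytes, 1 and 2 in 14-d monocytes, and 2 and 5 of 8 in 14-d macrophages, beside the all-gene shares of 36.8% higher and 14.4% lower, 3.22% and 5.34%, and 39.4% and 22.9%. *Siglec1* (CD169), a macrophage receptor, was called lower in all 3 comparisons (-1.34, -2.12 and -1.17). Of 7 tested other Ly6 genes, 1 was called higher and 4 lower in 3-d monocytes and 0 and 5 in 14-d monocytes. *Ly6i* went from 162 to 224 CPM in control to 22.5 to 89.4 CPM at 3 d and 12.97 to 17.9 CPM at 14 d (-1.58 and -3.58), and *Ly6e* changed by -0.74 and -1.49. The lymphoid and stem cell antigen *Ly6a* (Sca-1) was called lower at 14 d only (-1.45, against -0.47 at 3 d). Of 9 tested in 14-d macrophages, 2 of these Ly6 genes were called higher and 1 lower.

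The median log2 fold change of each list stands beside that of all genes, which was 0.22 in 3-d monocytes, 0.09 in 14-d monocytes and 0.18 in 14-d macrophages. In the same order, the medians were -0.66, -0.82 and -0.26 for the other panel antigens, -0.29, -0.23 and 0.33 for the integrins, and -0.41, -0.36 and -1.04 for the Siglecs. The other Ly6 genes had medians of -0.82, -1.56 and 0.68, the adhesion receptors -0.06, -1.43 and 2.16, and the partners of CD45 -0.91, -0.63 and -0.53.

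The genes most like each marker were named by Pearson correlation of log2 CPM over the libraries of the cell type in which the marker is high, which share depth and group structure, so the coefficients are descriptions only. Over the 10 macrophage libraries and 9648 genes, *Siglecf* was followed most closely by *Gm37305* and *Usf2* (each 0.989), *Itgax* by *Tpp1* (0.988) and *Adgre1* by *Rhoa* (0.997). Over the 12 monocyte libraries and 8080 genes, *Itgam* was followed by *Polr3f* (0.985), *Ly6c2* by *Ddx60* (0.959), *Ptprc* by *Atl2* (0.981) and *Ly6c1*, with its departing libraries, by *Akr1b10* (0.850).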

How the data were processed

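RNA of sorted cells was selected with oligo(dT), made into libraries with a kit that does not mark strand and sequenced in pairs. The deposited values are raw counts of reads per gene, 1 table for each cell type, with Ensembl gene identifiers, which were matched to symbols and coordinates in GENCODE vM21. Per the labels, the processing notes name STAR 2.7.2c and 2.7.3a, featureCounts 1.6.3, DESeq2 1.26.0 and 1.28.1, and GRCm38 or mm10. The annotation release and the treatment of reads that fit several genes are not given in the sources used here. The tables listed 55421 genes for monocytes and 31134 for macrophages, and the joint fit used the 31116 in both. *Ptprcap* had 0 to 3 counts in the monocyte table and 51 to 377 in the macrophage table, so annotation or counting may differ between them.

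Counts were fitted with edgeR 4.0.16 (R 4.3.3, robust quasi-likelihood, filterByExpr, TMM), within each cell type and jointly. P-values were adjusted by Benjamini-Hochberg over every gene in the fit, and calls needed an adjusted p under 0.05 with a fold above 1.5. CPM and RPKM use the TMM factors of each cell type's fit and exonic gene length. Ratios within a library, with 0.5 counts added, were compared by exact two-sided permutation tests in SciPy 1.17.1. Alternatives were other scalings, filters on low counts, DESeq2 1.42.0, a replicate block, and each library left out in turn, and the fit without control monocyte replicates 3 and 4 was added after seeing the data. The scripts were tested on simulated data. The marker genes and gene lists were chosen with earlier results of these data known. All 8 marker genes are named. Of each other list, counts are given, with up to 4 genes named by highest mean CPM over the 22 libraries, apart from 1 gene not reported here, and others are said to be chosen after their values were seen. Likeness was ranked over genes with a mean log2 CPM above 3.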

Additional observations from a re-analysis of the deposited data

Results flagged for a closer look

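Single libraries stood apart from their group in 3 of 60 groups of values examined with Dixon's test, where chance gives about 1 in 20. *Ly6c1* was at 9.98 CPM in 3-d monocyte replicate 4, against 88.9 to 118 CPM in the other 3 libraries. The log2 ratio of *Ly6c2* to *Ly6c1* in the same library was 8.19. *Ptprc* was at 704 CPM in control macrophage replicate 1, against 644 to 654 CPM in the other 3.

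The change with injury differed between the cell types by the interaction test of edgeR's joint fit, with log2 differences given as macrophages minus monocytes. At 3 d this held for *Itgam* (3.21). At 14 d it held for *Itgam* (5.15), *Itgax* (-2.21), *Ly6c1* (3.56), *Ly6c2* (1.28, and 1.26 and not called with a replicate block) and *Adgre1* (-1.65). These comparisons cross the separately made tables, and at 14 d the control and injured libraries also differ in sex in both cell types.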

How the results depend on the processing

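Leaving out 1 library at a time gave 1378 values, of which 1318 kept direction and side of the threshold, and the other alternatives gave 821, of which 726 did. No called change reversed. The number of marker genes called in 3-d monocytes (5) was 3 with RLE factors, upper quartile scaling, DESeq2 or control replicates 3 and 4 left out together, 2 by library size or with TMM taken only from genes above 5 in mean log2 CPM, 1 when genes at or under 1 in mean log2 CPM were left out, and 2 to 5 with 1 library left out. In 14-d monocytes (2) it was 4 with DESeq2 and 1 to 3 with 1 library left out, *Ptprc* being lost without 14-d replicate 3 (adjusted p = 0.056). At 14 d against 3 d (4) it was 2 after that filter and 3 to 5 with 1 library left out. In 3-d macrophages (0) it was 1 after that filter or with DESeq2, and 0 to 3 with 1 library left out. In 14-d macrophages (6) it was 6 to 7 with 1 library left out, and at 14 d against 3 d (5) it was 2 by library size or TMM from genes above 5, 3 with upper quartile scaling and 4 to 5 with 1 library left out. Between cell types the ranges with 1 library left out were 6 to 6 in control, 6 to 7 for 3-d libraries and 7 to 7 for 14-d libraries. The count of interactions at 3 d (1) was 3 with control replicates 3 and 4 left out and 1 to 2 with 1 library left out. That at 14 d (5) was 4 to 5. The number of ratio tests at an unadjusted p under 0.05 (5) was 1 to 5 with 1 library left out. The cause of these shifts was not tested.

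Same-numbered libraries did not all deviate together, so the numbers were not taken as pairs. With a replicate block the interactions called at 3 d were 3, *Itgax* (1.42) and *Ptprc* (0.79) being added, *Ly6c2* at 14 d (1.26) was lost, and *Ly6g* in 3-d monocytes (2.95) was lost.

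Changes near 0 reversed with the setting, none of them called. By library size, upper quartile scaling, TMM from genes above 5 and the filter above 1, in that order, *Ly6c1* in 3-d monocytes was 0.19, 0.06, 0.23 and 0.04. At 14 d against 3 d in monocytes *Siglecf* was -0.21, -0.23, -0.30 and -0.16 and *Ptprc* -0.10, -0.15, -0.19 and -0.05, and *Ly6c2* in macrophages was 0.26, 0.12, 0.30 and 0.08. The interaction of *Ptprc* at 14 d was 0.13, 0.14 and 0.31 under the first 3 of these. By library size and TMM from genes above 5, *Itgam* in 14-d monocytes was 0.07 and 0.02 and *Adgre1* between control cell types 0.32 and 0.05. *Adgre1* between 3-d cell types was -0.17 with upper quartile scaling, and *Ly6g* between 14-d cell types 0.05 by library size. Without a filter *Ly6c2* in 3-d monocytes was -0.22 and the interaction of *Ly6g* at 14 d -0.08. With control replicates 3 and 4 left out, *Ly6c2* in 3-d monocytes was -0.09, *Adgre1* in 14-d monocytes -0.03, the interaction of *Siglecf* -0.12 at 3 d and -1.47 at 14 d, and that of *Ly6g* at 14 d -0.60.

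With 1 library left out, the interactions at 14 d ranged from -1.86 to 0.97 for *Ly6g* and -0.43 to 0.50 for *Siglecf*. In macrophages *Ly6c1* ranged from -0.13 to 1.00 and *Ly6c2* from -0.85 to 0.18 at 14 d against 3 d, and *Ly6c2* from 0.00 to 1.02 at 14 d. *Adgre1* between control cell types ranged from -0.22 to 0.02. In monocytes *Ly6g* ranged from -1.10 to 0.40 and *Siglecf* from -0.13 to 0.69 at 14 d against 3 d, *Itgam* from -0.13 to 0.10 at 14 d, and at 3 d *Ly6c1* from -0.51 to 0.06 and *Ly6c2* from -0.05 to 0.13. *Ly6g* had at most 42 counts in any library, so its values rest on few reads.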
